A study of Drosophila melanogaster with 3 samples.

Results

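The Notch pathway genes described here were the receptor gene N, the ligand genes Dl and Ser, and 6 genes that act on the receptor, the ligands or the nuclear response: fng, numb, neur, kuz, Su(H) and mam. These 9 genes, of 13945 protein-coding genes placed on the genome, were chosen by name as core components of the pathway. Earlier results of these data were known when they were chosen. Binding was read from the peak summits in each gene body plus 5 kb to each side. These 9 windows held 23 of the 6056 summits of the authors' optimal set. The annotation spells Dl as Delta (FBgn0000463).

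The measurement was chromatin immunoprecipitation followed by sequencing (ChIP-seq) for caup, a homeodomain transcription factor of the Iroquois complex. All samples were whole embryos of 0 to 24 h, male and female pooled, of 1 transgenic Drosophila melanogaster line that stably expressed caup with GFP fused at its C terminus, and the immunoprecipitation used an antibody against GFP. There was 1 group of 3 biological replicates and no second genotype, stage or treatment, so nothing was compared between conditions. Sites used in few cells and sites used weakly in many cells cannot be told apart in whole embryos, and embryos from a line without the fusion were not analysed here.

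Notch is a transmembrane receptor whose ligands Delta and Serrate sit on the surface of neighbouring cells. Ligand binding exposes the receptor to the metalloprotease Kuzbanian and then to gamma-secretase, and the released intracellular domain joins Suppressor of Hairless and Mastermind on DNA to switch on target genes. In the developing Drosophila eye, Iroquois genes are known to restrict fng to the ventral side, and the boundary of fng expression sets up Notch activation through Dl and Ser along the midline. The embryos measured here are an earlier stage than the larval eye disc in which that control is known.

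Of the 9 genes, 6 (66.7%, Wilson 95% interval 35.4 to 87.9) had an optimal summit within 1 kb of a transcription start site (TSS), against 27.6% of all protein-coding genes. They were N, numb, neur, kuz, Su(H) and mam. In the gene body plus 5 kb, 7 of 9 (77.8%, 45.3 to 93.7) had an optimal summit, against 54.4% of all protein-coding genes, fng being the addition. Neither ligand gene, Dl or Ser, had an optimal summit in its window. With 9 genes the intervals are wide. The genes are a chosen list and not a random sample, so the intervals are no test against the shares of all genes. Against genes of like length the differences were smaller, the shares there being 45.4% and 71.7%.

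**Figure D1:**
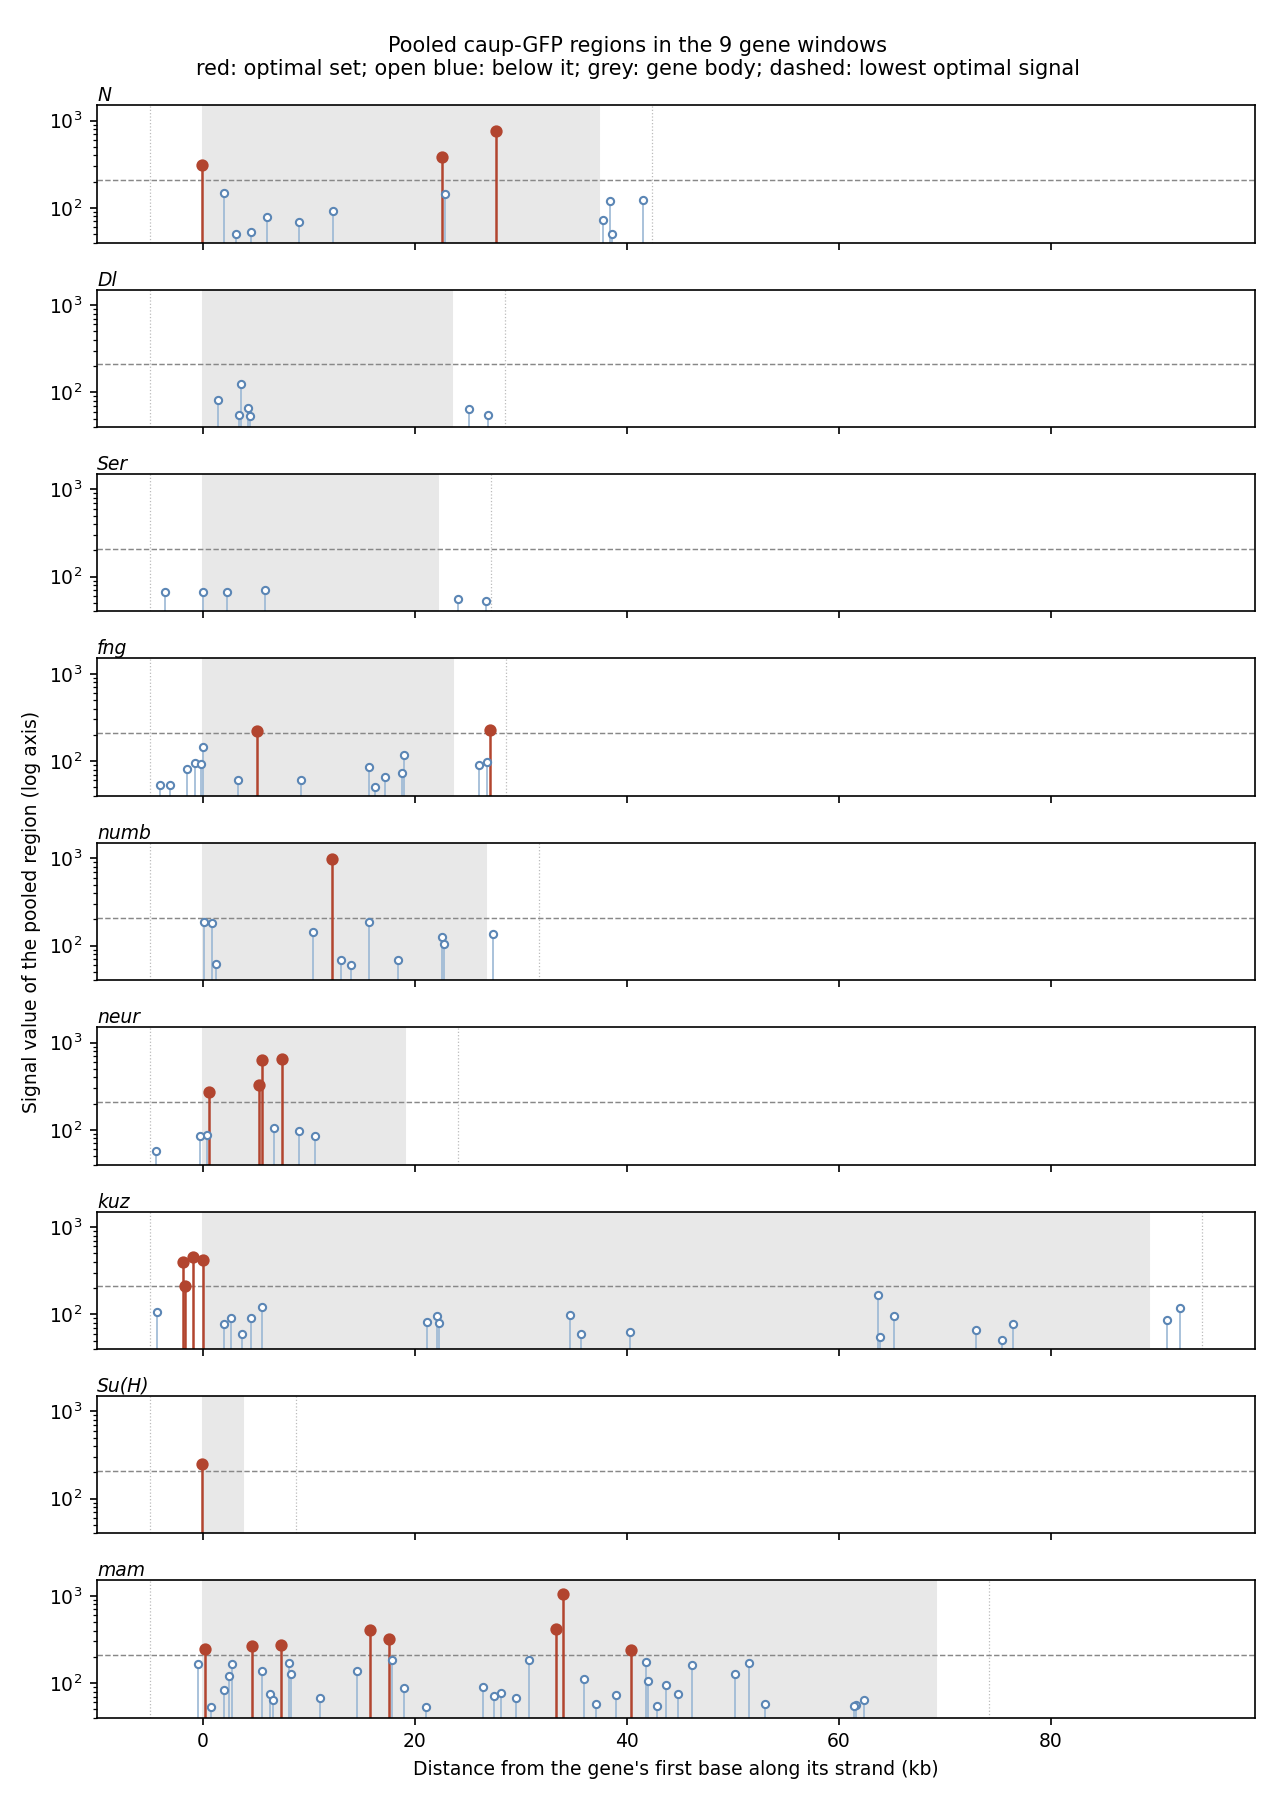
Signal value (log axis) of every region of the authors' pooled list in the 9 gene windows, plotted against the distance of its summit from the gene's first base along its strand in kb; filled red circles are regions of the optimal set, open blue circles are weaker pooled regions, grey marks the gene body, dotted lines mark the ends of the 5 kb flanks and the dashed line marks the lowest optimal signal value. Only weaker regions appear at Dl and Ser, while mam carries 8 optimal summits along its body and kuz carries its 4 at the start.

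The DNA under 6 of these summits is shown because they are the strongest of N, numb and neur outside annotated exons and the intronic summit of fng, the gene with the known Iroquois link. The summit of highest signal value among all these genes, in mam, is not shown, and none of the motifs searched lay within 100 bp of it. Each stretch is 201 bp of the dm6 plus strand, 5′ to 3′, with the summit in its centre. Capitals mark matches, on either strand, to the motifs searched: the Iroquois palindrome ACANNTGT, the homeodomain core TAATTA, the repeat CACACACA, the E-box sequence CAGCTG, and the sequence of the GAGA factor, GAGAG. On the other strand the repeat reads TGTGTGTG and the GAGA factor's sequence reads CTCTC. Both N sequences lie in introns, at chrX:3162433-3162633 and chrX:3157389-3157589. The numb sequence lies just upstream of an internal start site at chr2L:9449550-9449750. Those of neur lie at chr3R:9031894-9032094, in an intron, and chr3R:9033808-9034008, just upstream of an internal start site, and that of fng lies in an intron at chr3L:20944289-20944489.
N intron, stronger summit: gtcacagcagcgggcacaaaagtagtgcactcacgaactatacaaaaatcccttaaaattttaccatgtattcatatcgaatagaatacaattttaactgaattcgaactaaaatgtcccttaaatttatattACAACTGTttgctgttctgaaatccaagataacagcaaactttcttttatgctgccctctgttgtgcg
N intron, weaker summit: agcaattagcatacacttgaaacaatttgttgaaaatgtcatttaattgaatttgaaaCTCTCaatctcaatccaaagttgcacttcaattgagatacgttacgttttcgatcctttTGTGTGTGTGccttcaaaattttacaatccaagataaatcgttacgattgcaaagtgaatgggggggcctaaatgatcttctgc
numb internal start: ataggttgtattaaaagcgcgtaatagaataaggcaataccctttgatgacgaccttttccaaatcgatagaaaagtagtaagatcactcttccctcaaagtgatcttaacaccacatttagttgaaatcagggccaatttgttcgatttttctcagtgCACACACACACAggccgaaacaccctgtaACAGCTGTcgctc
neur intron: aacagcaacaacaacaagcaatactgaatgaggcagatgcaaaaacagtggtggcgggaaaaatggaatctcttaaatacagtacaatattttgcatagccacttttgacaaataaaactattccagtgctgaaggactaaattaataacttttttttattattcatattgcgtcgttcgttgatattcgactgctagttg
neur internal start: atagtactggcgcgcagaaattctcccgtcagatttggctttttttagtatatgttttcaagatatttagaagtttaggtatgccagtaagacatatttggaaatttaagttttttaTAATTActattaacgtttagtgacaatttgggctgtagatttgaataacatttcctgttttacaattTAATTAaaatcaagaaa
fng intron: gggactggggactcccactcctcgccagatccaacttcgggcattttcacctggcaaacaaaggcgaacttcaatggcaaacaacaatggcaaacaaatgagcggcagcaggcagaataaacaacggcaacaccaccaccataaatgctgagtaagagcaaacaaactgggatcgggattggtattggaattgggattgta

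N, the receptor gene (FBgn0004647, chrX:3134870-3172221, plus strand), carried 3 optimal summits, all in the top regions of every replicate. Signal values are the authors' enrichment statistic for each region and can be compared only within a list, so replicates are compared by rank, where 1 is the strongest of 30000 regions. A replicate's top regions are its 6056 strongest, as many as the optimal set holds. The strongest N summit, in chrX:3162390-3162674, lay in an intron 27663 bp downstream of the start site, with a signal value of 760.0 in the pooled list. It ranked 822, 716 and 785 in replicates 1, 2 and 3, at signal values of 237, 195 and 313. All 3 ranks lay within the strongest 1000 regions, and the replicate summits were 26, 3 and 30 bp from the pooled one.

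The next summit in N, in chrX:3157408-3157565, was also intronic, 22619 bp from the start site, with a signal value of 384. Its ranks of 3916, 1681 and 2970 were more spread than those of the stronger site. The summit at the N start site, in chrX:3134573-3134992, lay 87 bp upstream of it with the lowest signal value of the gene, 308, and ranks of 4063, 3887 and 2837. The intronic summit farthest from the start was thus the strongest of the 3 in every list. For both intronic summits the nearest start site was that of CG18508, 10607 bp from the stronger and 15651 bp from the weaker. The promoter summit was the weakest in the pooled list and in replicates 1 and 2, while in replicate 3 it ranked above the other intronic summit. The match ACAACTGT to the ACANNTGT pattern lay 33 to 40 bp to the right of the strongest summit, and GGTCACAC, a core promoter sequence known as Ohler 1, was within 100 bp of the promoter summit.

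The ligand genes Dl and Ser had no optimal summit in the gene body plus 5 kb. Both encode transmembrane proteins that bind Notch on adjacent cells. Dl (FBgn0000463, chr3R:19302731-19326217, minus strand) had 7 regions in the pooled list, none within 1 kb of its start site. The strongest, in chr3R:19322347-19322766, lay in an intron 3660 bp downstream of the start, with a signal value of 124 against the lowest optimal value of 209. It ranked 11323 in the pooled list and 17137, 14727 and 9189 in replicates 1, 2 and 3, outside the top regions of each. The next pooled regions of Dl, 1452 and 4265 bp downstream, had signal values of 81.5 and 66.8.

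The best Dl region of replicate 3 was a different one, singled out after its rank was seen. It lay 1 bp from the Dl start site and ranked 6082, just outside that replicate's 6056 top regions. The best ranks in replicates 1 and 2 were 15189 and 14727, at 15299 and 3732 bp from the start site. A region at the Dl start site was therefore near the limit in 1 replicate, while the 2 others had none among their 30000 regions within 1 kb. The nearest optimal summit to Dl lay 77057 bp upstream, beside the chromatin remodeller gene Ino80, with a signal value of 796. Only 2.91% of protein-coding genes were farther from an optimal summit, the median distance being 5314 bp.

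Ser (FBgn0004197, chr3R:27172090-27194267, minus strand) had the weakest best region of the 9 genes. That region, in chr3R:27188136-27188555, had a signal value of 71.2 in an intron 5649 bp downstream of a start site and ranked 20644. It ranked 25717, 26048 and 26366 in replicates 1, 2 and 3, low in all 3 lists. The next regions had signal values of 67.3, lying 3596 bp upstream, and 66.8, lying 2042 bp downstream. The region at the Ser start site itself, 4 bp from it and singled out after its value was seen, had a signal value of 66.1 and ranks of 17208, 17216 and 25437. The nearest optimal summit was 14927 bp upstream of Ser, with a signal value of 343 and 8990 bp from the nearest start site of any gene, lncRNA:CR34006. A distance this large was common, with 25.9% of protein-coding genes farther from an optimal summit.

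The ligand genes were not short. Both belong to the longest of 10 length classes, and their best pooled regions were weak within it: 14.2% of the genes of that class had an equal or weaker best region than Dl, and 8.03% than Ser. An optimal summit in the gene body plus 5 kb was present in 73.5% of that class.

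The gene fng (FBgn0011591, chr3L:20925891-20949512, minus strand) encodes the glycosyltransferase that modifies Notch in the Golgi, so that the receptor responds more to Delta and less to Serrate. It had 2 weak optimal summits and none within 1 kb of its start site. The first, in chr3L:20922345-20922477, lay in intergenic sequence downstream of the gene, 701 bp from the start site of lncRNA:CR43929, with a signal value of 230.0 and ranks of 3854, 3646 and 6464. The second, in chr3L:20944179-20944598, lay in an intron 5123 bp from the start site, with a signal value of 221 and ranks of 6027, 7301 and 5662. Each summit was in the top regions of 2 replicates and outside those of the other one, and both lay near the lowest optimal value of 209.

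At the fng start site the lists differed. A pooled region 49 bp downstream of it, in chr3L:20949253-20949672, had a signal value of 144 and ranked 9580, below the optimal set. Its nearest regions in replicates 1, 2 and 3 ranked 5547, 27090 and 11472, so replicate 1 alone placed it among the top regions. This region was singled out after its values were seen. The intronic sequence printed for fng held none of the motifs searched.

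The gene neur (FBgn0002932, chr3R:9020348-9039471, minus strand) encodes Neuralized, an E3 ubiquitin ligase that drives endocytosis of the ligands in the signal-sending cell. It had 4 optimal summits in 29.1 kb, or 1.37 per 10 kb, the densest of the 9 windows. The strongest, in chr3R:9031907-9032145, lay in an intron 1737 bp downstream of the internal start site, with a signal value of 643. Its ranks of 935, 932 and 1208 in the 3 replicates lay close together, at signal values of 221, 170.2 and 247.

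At that internal start site, used by transcripts RA and RB, neur had a pair of overlapping regions. The summit in chr3R:9033837-9033941, 177 bp upstream, had a signal value of 626 and ranks of 1952, 1124 and 795. The summit in chr3R:9033902-9034321, 381 bp upstream, had a signal value of 328. The regions of replicates 2 and 3 nearest to it ranked 3614 and 2576, while that of replicate 1 ranked 17474, and its place in the top regions of replicate 1 rests on the neighbouring region. These nearest regions had their summits 14, 12 and 18 bp from the pooled one in replicates 1, 2 and 3. Both summits thus had a region of their own in every replicate, but that of the weaker one was far below the top regions in replicate 1.

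The remaining neur summit, in chr3R:9038692-9039111, lay 569 bp downstream of the gene's first start site but 142 bp from that of hyx, whose untranslated or non-coding exon it overlaps. It had a signal value of 268 and ranks of 2878, 5190 and 7656, the last outside the top regions of replicate 3. Of the 3 neur summits within 1 kb of a start site, this was the only one nearer to another gene.

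The gene kuz (FBgn0259984, chr2L:13550139-13639411, plus strand) encodes the ADAM metalloprotease that makes the first ligand-dependent cut in Notch. Its window was the longest of the 9, 99.3 kb, yet all 4 optimal summits lay at or upstream of the start of the gene, close to or inside its neighbour B4. The summit nearest to the kuz start site, 49 bp downstream in chr2L:13549978-13550397, had a signal value of 423. It ranked 1417, 6269 and 1915, strong in replicates 1 and 3 and just outside the top regions of replicate 2. The strongest, in chr2L:13549156-13549374 with a signal value of 451, lay 874 bp upstream of kuz but 63 bp from the B4 start site. It ranked 952, 2883 and 1966, inside every replicate's top regions.

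The other kuz summits, in chr2L:13548074-13548493 and chr2L:13548273-13548692, lay 1855 and 1656 bp upstream, inside an intron of B4. Their signal values were 402 and 213. The first ranked 5137, 1803 and 1562, and the second 19200, 3530 and 2281, far lower in replicate 1 than in the others. Of the 4 summits counted for kuz, 1 was nearest to a kuz start site and the others were nearest to that of B4.

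The gene numb (FBgn0002973, chr2L:9437469-9464184, plus strand) encodes a membrane-associated inhibitor of Notch that is inherited by 1 daughter of an asymmetric division. It had 1 optimal summit, in chr2L:9449388-9449792, 180 bp upstream of the internal start site of transcripts RA and RD. Its signal value of 991 was the second highest of the 23, at the percentile 93.0 of the optimal set. It ranked 714, 334 and 357 in replicates 1, 2 and 3, at signal values of 255, 295 and 461, high in each list. The upstream start site of numb had a pooled region 89 bp downstream of it with a signal value of 187, below the optimal set, and ranks of 4289, 7394 and 9791. That region, singled out after its values were seen, was in the top regions of replicate 1 only. The 2 start sites of numb thus differed, the internal one carrying the stronger region in all 3 replicates. In the printed sequence, ACAGCTGT, which contains the E-box CAGCTG, lies 88 to 95 bp to the right of the summit.

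Su(H) (FBgn0004837, chr2L:15039488-15043334, plus strand) encodes the DNA-binding protein that carries the Notch intracellular domain to its target genes. It was the shortest of the 9 genes and had 1 optimal summit, in chr2L:15039230-15039649, 48 bp upstream of its start site, with a signal value of 249. The replicate summits lay 1, 7 and 3 bp from the pooled one. Their ranks of 4128, 4801 and 6153 put it inside the top regions of replicates 1 and 2 and just outside those of replicate 3. The position was therefore shared closely by the 3 replicates while the rank was modest. TATCGATA, the DNA replication-related element of many housekeeping promoters, lay 55 to 62 bp from the summit.

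The gene mam (FBgn0002643, chr2R:13991203-14060356, plus strand) encodes Mastermind, the co-activator that binds the complex of Su(H) and the Notch intracellular domain. It had 8 optimal summits, the most of the 9 genes, or 1.01 per 10 kb. In the longest of the 10 length classes, 96.5% of genes had 8 or fewer and the mean was 2.47. The strongest, in chr2R:14024962-14025328, had the highest signal value of all 23, 1053, in an intron 6492 bp upstream of the start site of transcript RC. It ranked 560, 420 and 309, at signal values of 289, 263 and 499.6, among the strongest regions of every replicate. A second intronic summit 7146 bp upstream of the same start, in chr2R:14024307-14024726, had a signal value of 420.5 and ranks of 4003, 2263 and 1198.

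Of the other mam summits, 3 lay within 1 kb of a mam start site, and all 3 were nearest to it among the start sites of any gene. They lay 400 bp upstream of the start of transcripts RB and RD, 186 bp downstream of that of RA and 85 bp upstream of that of RC, with signal values of 317, 245 and 243. The first ranked 8632, 1236 and 3143, the second had nearest regions ranked 5828, 4561 and 8883, and the third had nearest regions ranked 5095, 10887 and 6578. Each was inside the top regions of 2 replicates. For the third, the place in replicate 3 rests on another region that contains the summit, ranked 3953. A summit 2226 bp upstream of the RB and RD start, 967 bp from the microRNA gene mir-4978, had a signal value of 401 and ranks of 1117, 8038 and 2864. The last summits, 4627 and 7369 bp into the gene from its first start, had signal values of 268 and 276. The first of them was in the top regions of all 3 replicates. In replicate 2 that rests on another region ranked 4096, while the nearest one ranked 6930. All 3 start sites of mam thus carried a summit, and the strongest summit in the window lay away from them, as in N. The start site nearest to that summit was that of CG18371, 3449 bp away. CG18371 was also nearest, at 4103 bp, to the intronic summit with a signal value of 420.5.

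Of the 23 summits, 11 lay within 1 kb of a start site of the gene itself, 4 within 1 kb of that of another gene only and 8 farther than 1 kb from any. For 13 of the 23, the nearest start site of any gene was the member's own. Introns held 16 of 23 (69.6%), against 47.1% of all optimal summits, and intergenic sequence held 3 (13.0%), against 34.1%. The windows were drawn around gene bodies, and the part of that choice in both shares was not tested. Untranslated or non-coding exons held 4 (17.4%), against 18.03%, and coding exons none, against 0.760%. Within 1 kb of any start site were 15 of 23 (65.2%, Wilson 95% interval 44.9 to 81.2), against 61.1% of all optimal summits. The median signal value was 328, at the percentile 49.1 of the optimal set, and 11 of 23 lay above the optimal median of 333. Summits within 1 kb of the gene's own start sites had a median signal value of 317, and the rest one of 392.

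Replicates 1, 2 and 3 held 21, 18 and 19 of the 23 summits in their top regions (91.3%, 78.3% and 82.6%), against 82.3%, 82.3% and 86.6% of all optimal summits. All 3 replicates held 12 of 23 (52.2%, Wilson 95% interval 33.0 to 70.8), against 62.7% of all optimal summits, and the other 11 were in the top regions of 2. The interval treats the 23 summits as independent, though they share genes and some of their regions overlap. Of the 11 summits above the optimal median signal value, 9 were in all 3, and of the 12 at or below it, 3 were. Of those 3, the neur summit in replicate 1 and the mam summit in replicate 2 were held only through another region that contains them. Counted by the nearest region alone, replicates 1, 2 and 3 held 20, 17 and 18 of the 23 summits in their top regions. The optimal set comes from these same replicates, so this support is partly fixed by its construction. The summits held by all 3 replicates were the 3 of N, the single one of numb, 3 of neur, 2 of kuz and 3 of mam. None of fng or Su(H) was among them.

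**Figure D2:**
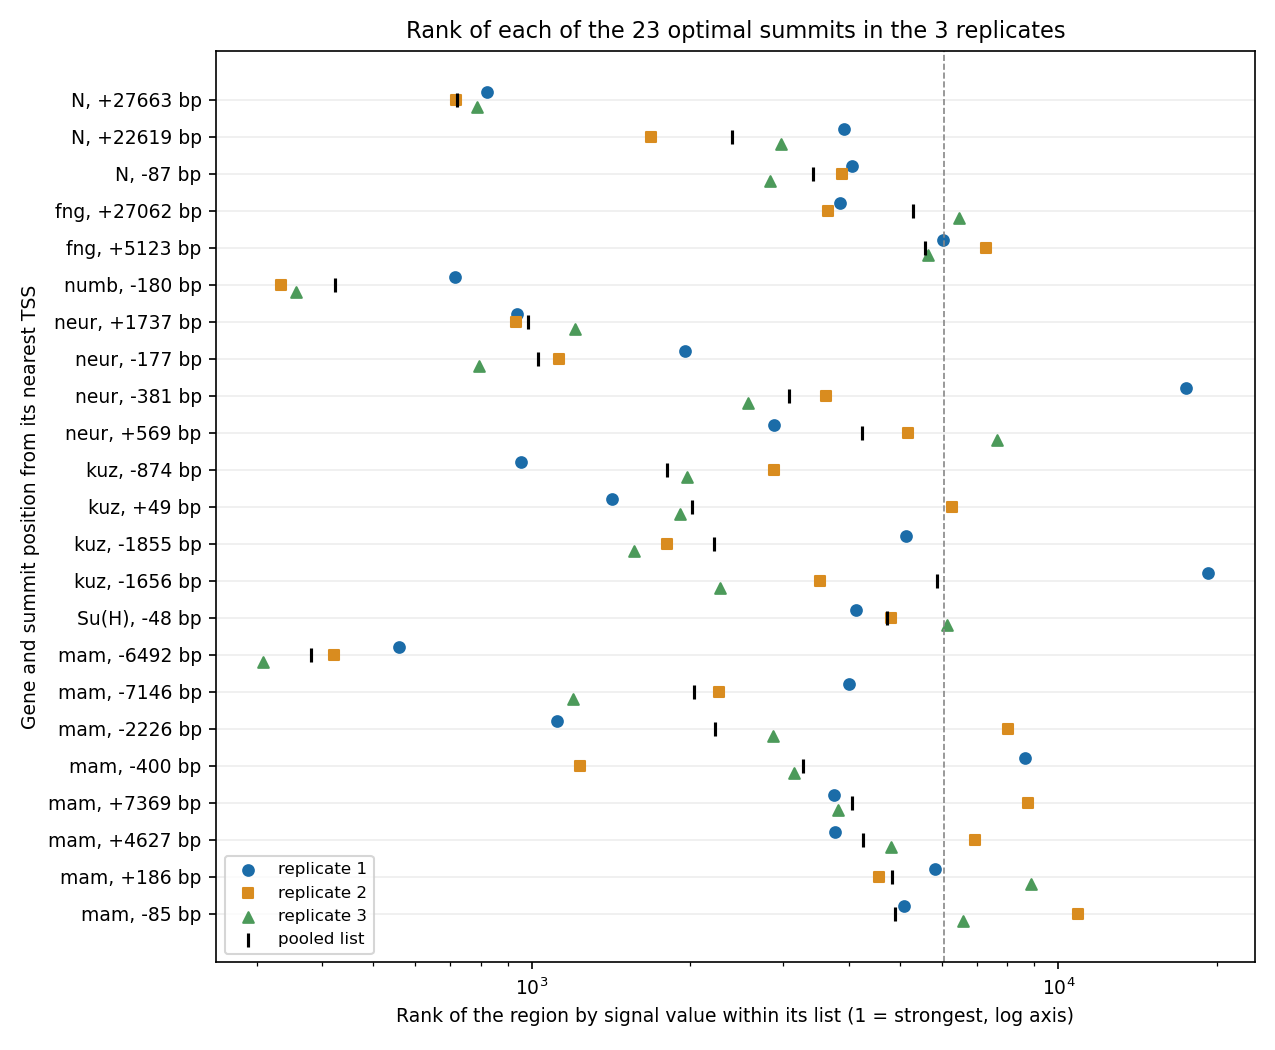
Rank by signal value of the nearest region in replicate 1 (blue circles), replicate 2 (orange squares), replicate 3 (green triangles) and the pooled list (black bars) for each of the 23 optimal summits, on a log axis where 1 is the strongest; rows give the gene and the summit's distance from its nearest start site in bp, and the dashed line is rank 6056. Markers of the strongest N, numb and mam summits lie together at the left, while 1 neur and 1 kuz summit have a replicate 1 rank of 17474 and 19200 far to the right.

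Read from each replicate alone, 7, 6 and 5 of the 9 genes had a top region with its summit within 1 kb of a start site in replicates 1, 2 and 3, against 29.4%, 28.1% and 26.3% of all protein-coding genes. Replicate 1 added fng and replicate 3 lacked Su(H), while N, numb, neur, kuz and mam were found in all 3. The windows held 25, 22 and 22 top summits in the 3 replicates. The full pooled list, which holds weak regions too, placed at least 1 summit in the window of every one of the 9 genes, and 81.6% of all protein-coding genes had one. Its 134 summits in the 9 windows are therefore described by rank and signal value within that list and not counted as peaks.

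**Figure D3:**
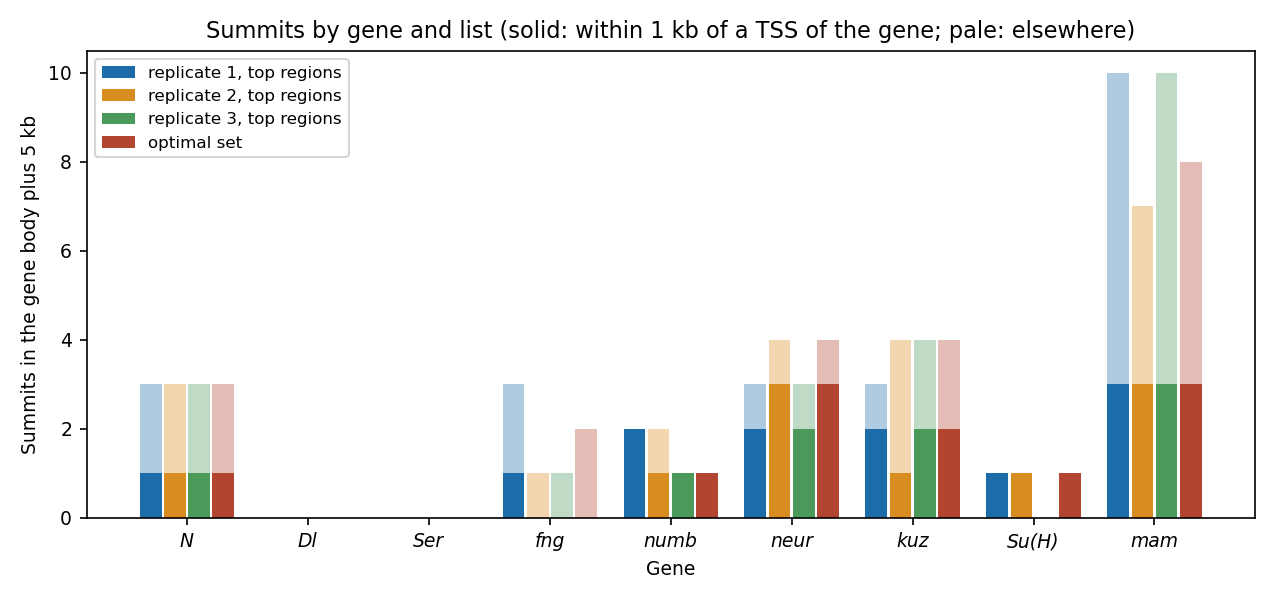
Number of summits in the gene body plus 5 kb for each of the 9 genes, in the top 6056 regions of replicates 1, 2 and 3 and in the optimal set; solid parts of the bars are within 1 kb of a start site of the gene and pale parts lie elsewhere. Dl and Ser have no bar in any list, and mam has the tallest, with 10, 7 and 10 in the replicates and 8 in the optimal set.

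Over all protein-coding genes, longer genes more often had an optimal summit. The part of length in the members' counts was not tested, and the number of start sites per gene was not set apart from it. The median length of the 9 genes was 23.6 kb, against 2.17 kb for all protein-coding genes, and 8 of the 9 fell in the longest of 10 length classes, Su(H) being in class 7. The share of genes with an optimal summit within 1 kb of a start site was 47.1% in the longest class and 10.5% in the shortest. Averaged over the members' own length classes, 45.4% of genes had a summit within 1 kb of a start site and 71.7% had one in the gene body plus 5 kb, beside 66.7% and 77.8% of the 9. Both averages lie inside the intervals of the members' shares. Those intervals are wide with 9 genes and, for a chosen list, are no test against the averages. Per 10 kb, the 9 windows together held 0.568 summits over 404.8 kb, against a mean of 0.569 over the genes of the longest class. The value for the 9 is a ratio over their summed windows, while that of the class is a mean of per-gene values. The closeness of these values is therefore not a like-for-like match. Over all protein-coding genes the mean was 0.716 and the median 0.518.

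**Figure D4:**
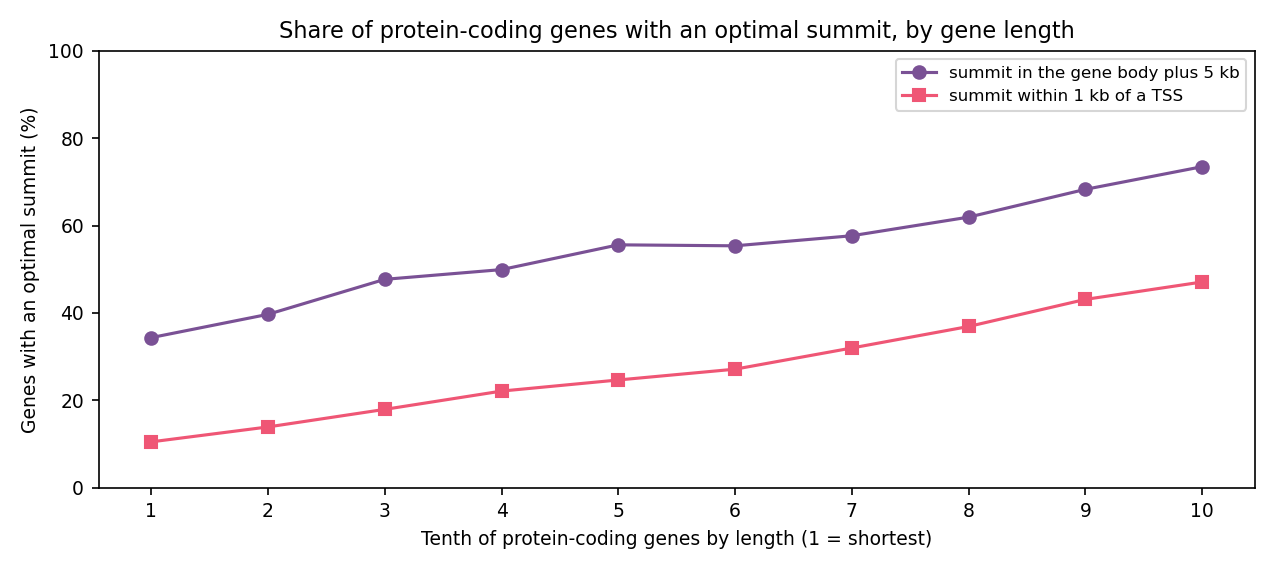
Share of protein-coding genes (%) with an optimal summit in the gene body plus 5 kb (purple circles) or within 1 kb of a start site (pink squares), by class of gene length, from 1, the shortest, to 10, the longest. Both shares are higher in longer genes: 73.5% and 47.1% in class 10, against 34.4% and 10.5% in class 1.

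A list of 30 further genes of the pathway gives the members' surroundings. Of these, 13 (43.3%, Wilson 95% interval 27.4 to 60.8) had an optimal summit within 1 kb of a start site, against 27.6% of all protein-coding genes and 32.9% averaged over their own length classes. In the gene body plus 5 kb, 22 (73.3%, 55.6 to 85.8) had one, against 54.4% of all protein-coding genes and 59.3% over their length classes. For 7 of the 13, the start site nearest to the summit was the gene's own. These genes too are a chosen list, so the intervals are no test against the share of all genes or the average over length classes.

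The 6 highest signal values at start sites of these genes were all in the top regions of every replicate. The gene lgd, spelt l(2)gd1 in the annotation, limits Notch activation in endosomes and had a signal value of 1754 at a summit 100 bp from its start. The co-repressor gene gro, whose product acts with the E(spl) proteins, had one of 1356 at 144 bp. At nej (1410.0), which encodes the histone acetyltransferase CBP, at frc (1397), a Golgi nucleotide-sugar transporter gene, at aph-1 (947), a gamma-secretase subunit gene, and at dx (739), a cytoplasmic regulator of Notch, the summit was nearer to another gene. Those neighbours were lncRNA:CR42657, CG32176, Snx21 and RpL7A. The Notch inhibitor gene H, the gamma-secretase gene Psn, spdo, Nle and the Bearded family genes Brd, Tom, Ocho and BobA had no optimal summit in the gene body plus 5 kb.

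Motifs were counted within 100 bp of the 23 summits, on both strands, and set beside the same windows at all optimal summits. ACANNTGT, which Iroquois proteins are known to bind, lay at 5 of 23 (21.7%), against 11.5% of all optimal summits: 1 each in N, numb and neur and 2 in kuz. None of the Su(H) octamers CGTGGGAA, TGTGGGAA, CGTGAGAA and TGTGAGAA was present, against 1.88% of all optimal summits, and their core GTGGGAA was at 1 neur summit, against 2.25%. CACACACA was at 4 (17.4%), against 5.47%, and CAGCTG at 4, against 10.7%, counting the numb match that lies inside ACAGCTGT. GAGAG was at 5 (21.7%), against 25.9%, TAATTA at 1, against 14.9%, TATCGATA at 1, against 3.62%, and GGTCACAC at 1, against 2.81%. A match describes the letters in the window and is not evidence of a bound site. With 23 windows, a count that differs by 1 or 2 moves the share by several percent, and the median G+C content of the windows was 40.3%, against 37.8% at all optimal summits.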

How the data were processed

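ChIP-seq region lists were analysed for 3 biological replicates of 1 group, per the labels; fragments were sonicated to 200 to 800 bp. Per notes deposited beside the lists, the authors called regions for each replicate against a control alignment and for the pooled replicates, and kept an optimal set by irreproducible discovery rate (IDR). Aligner, caller, versions and threshold: not given in the sources used here. The 5 dm6 lists were used, and the dm3 lists were not used here. The signal value of each region is the authors' deposited enrichment statistic; the deposited −log10 q value was tied among strong regions and not used to rank. The optimal set was identical to the 6056 strongest pooled regions. The lists hold no read counts, so depth is unknown.

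Summits were region start plus deposited offset. Genes came from Ensembl release 115 and sequence from the RefSeq genome, both of release 6, the build dm6; the spans of all 9 genes were equal in both and 0 regions passed a chromosome end. Locations were put in coding exon, untranslated or non-coding exon, intron or intergenic classes. A replicate supported a summit that 1 of its top regions contained. Wilson 95% intervals cover counting error only. Those over summits also treat the summits as independent, though summits share genes and some regions overlap. No test was made. Python 3.11.15, NumPy 2.4.6, pandas 2.3.3 and SciPy 1.17.1 were used, and the counting was tested on simulated data. Named genes were all 9 members with every optimal summit, for a member with none its 3 strongest pooled regions, the 6 further pathway genes of highest signal, and neighbours with a start site within 1 kb. Members, lists and motifs were chosen with earlier results of these data known. The alternatives were other distances, flanks, motif windows and support rules, the 3028 strongest regions, merged regions and leaving each replicate out of the support rule.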

Additional observations from a re-analysis of the deposited data

How the results depend on the processing

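Of 124 alternative values, 81 stayed within 1.5 times the main one. Those 81 include the values of 0 at Dl and Ser, which could not change where the optimal set was only filtered or the flank was removed. Among the 3028 strongest optimal regions, 3 of the 9 genes kept a summit within 1 kb of a start site, against 17.0% of all protein-coding genes; the windows held 11 summits, 4 of them within 1 kb of a start site, with 0 at fng and Su(H), 2 at neur and 3 at mam. With only summits in all 3 replicates' top regions, the windows held 12, 5 of them within 1 kb, with 0 at fng and Su(H), 2 at kuz and 3 at mam. With no flank, fng and kuz had 1 and Su(H) 0; with 10 kb, numb had 2 and neur 8. Replicate lists 2 times as long held 22 of 23 summits in all 3. The further pathway genes with a summit within 500 bp of a start site numbered 8, against 13 within 1 kb. The share of all protein-coding genes at 500 bp is not given here, so the count of 8 has no background.

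Each replicate was also left out of the support rule in turn. The optimal set still came from all 3 replicates and was only filtered, so no count of genes or window summits could rise. Asking for support in both others gave 5 to 6 genes within 1 kb of a start site, against 21.6%, 22.0% and 21.9% of all protein-coding genes without replicates 1, 2 and 3. In the gene body plus 5 kb it gave 5 to 7, against 46.8%, 46.7% and 46.5%. It gave 14 to 17 summits in the windows, 6 to 8 of them within 1 kb of a start site. The support for 14 to 17 summits is the same count. By gene it gave 3 at N, 0 at Dl and Ser, 0 to 1 at fng and Su(H), 1 at numb, 3 to 4 at neur, 2 to 3 at kuz and 4 to 6 at mam, and 10 to 12 further pathway genes. The 0 at Dl and Ser was fixed in advance, as neither had an optimal summit to filter. With motif windows of 50 bp to each side, ACANNTGT was at 1 summit (4.35%), against 6.36% of all optimal summits. At 100 bp the order was the reverse. CAGCTG was at 2, against 5.23%, and CACACACA at 1, against 2.05%. TATCGATA and GGTCACAC were at 0, against 2.06% and 1.40%. With 200 bp, ACANNTGT was at 10 (43.5%), against 21.5%, and CACACACA at 8 (34.8%), against 12.4%. CAGCTG was at 7 (30.4%), against 20.9%, and GAGAG at 11 (47.8%), against 46.6%. TAATTA was at 4 (17.4%), against 26.4%. The Su(H) octamers were at 1 (4.35%), against 4.11%, and GTGGGAA at 2 (8.70%), against 4.51%. Why the values moved between settings was not tested. No paired analysis was possible because there is 1 group. The depth is unknown, so regions at Dl and Ser that were listed but fell below the optimal set do not show that binding was absent.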

Other observations

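Counted within 50 kb of a start site, optimal summits numbered 4 at N, 0 at Dl, 7 at Ser, 3 at fng, 10 at numb, 16 at neur, 8 at kuz, 6 at Su(H) and 15 at mam, against a median of 6 over all protein-coding genes. Dl was alone among the 9 in having none, as had 6.16% of protein-coding genes. A count of 0 at Dl and not at Ser follows from the distances to their nearest optimal summits given above, and is no separate result. The 2 ligand genes, alike in having no optimal summit in the gene body plus 5 kb, thus differed in their wider surroundings.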
